A study of Drosophila melanogaster with 3 samples.

Results

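Translation factor genes are the genes for the proteins that start, extend and end the synthesis of a polypeptide on the ribosome. They were chosen by name, as the protein-coding genes whose symbol in the Ensembl BDGP6 gene models starts with eIF (initiation), eEF (elongation) or eRF (release). The rule found 54 of 13945 protein-coding genes on the 6 chromosome arms analysed, of which 44 were initiation factors, 8 elongation factors and 2 release factors. For each gene the strongest candidate peak summit of the tagged protein CG6765 within 500 bp of any annotated start site was sought. It was read from the deposited peak lists, whose candidates include background regions. The lists came from ChIP-seq (chromatin immunoprecipitation followed by sequencing) of whole Drosophila melanogaster embryos of both sexes, aged 0 to 24 h. All embryos belonged to a transgenic line that stably makes CG6765 with GFP at its C terminus. The summits are therefore those of a tagged protein in a mixture of all embryonic cell types. Chromatin was sonicated to 200 to 800 bp; the description in the labels gives an anti-GFP antibody, while the antibody label gives CG6765. There were 3 biological replicates in 1 group and no comparison group, and a possible control named in the labels is not analysed here.

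Initiation factors bring the initiator tRNA, the small ribosomal subunit and the capped mRNA together and find the start codon. Elongation factors deliver aminoacyl-tRNAs and move the ribosome along the mRNA, and release factors recognise the stop codon and free the finished chain. Most of these proteins are needed in every growing cell, but flies also carry paralogs of several of them, some of which are used mainly in the germline.

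Sequences at starts and summits of a few members are shown first, to set the DNA of strong sites beside that of members without a thresholded summit. They were read from the RefSeq Release 6 assembly (dm6) 5′ to 3′ on the strand of the gene, and capitals mark a searched word. The words were the DNA replication-related element TATCGATA (DRE, bound by Dref), the TATA word TATAAA, the initiator word TCAGT and the pyrimidine (TCT) initiator words CTTTT and CTTTC. Initiator words were searched only where they begin within 10 bases of the start, so a copy farther away stays in lower case. The first 5 lines belong to the 3 members of highest pooled signal outside a chromosome arm whose sequence is not shown, with 100 bases before and 20 bases from the start, or 50 bases on either side of the summit.
eEF1gamma start, chr3R:29220072-29220191, plus strand: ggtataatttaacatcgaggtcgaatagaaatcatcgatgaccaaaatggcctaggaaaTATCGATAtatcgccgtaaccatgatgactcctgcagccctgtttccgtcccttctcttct
eIF4EHP start, chr3R:24108941-24109060, minus strand: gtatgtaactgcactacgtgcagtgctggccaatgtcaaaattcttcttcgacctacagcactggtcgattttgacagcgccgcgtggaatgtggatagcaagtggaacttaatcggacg
eIF4EHP summit, chr3R:24109128-24109228, minus strand: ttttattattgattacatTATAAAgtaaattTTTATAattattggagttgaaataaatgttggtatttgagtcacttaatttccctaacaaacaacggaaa
eIF1 start, chr3L:3223241-3223360, plus strand: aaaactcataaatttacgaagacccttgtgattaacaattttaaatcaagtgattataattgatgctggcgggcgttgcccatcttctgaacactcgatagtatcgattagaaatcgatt
eIF1 summit, chr3L:3222957-3223057, plus strand: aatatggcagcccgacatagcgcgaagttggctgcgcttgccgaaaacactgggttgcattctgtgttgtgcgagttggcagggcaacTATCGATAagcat
The next pair are the alphabetically first initiation member and the first elongation or release member without a thresholded summit.
eIF1A start, chr3R:18274565-18274684, plus strand: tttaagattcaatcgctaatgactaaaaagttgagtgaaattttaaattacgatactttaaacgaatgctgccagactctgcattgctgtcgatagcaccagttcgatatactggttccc
eEF1alpha2 start, chr3R:31738368-31738487, plus strand: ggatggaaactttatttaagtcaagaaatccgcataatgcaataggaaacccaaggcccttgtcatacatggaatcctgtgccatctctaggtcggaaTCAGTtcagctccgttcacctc
The last pair, chosen after the values were seen, are start windows that show a TCT initiator word, with 15 bases on either side of the start.
eEF2 start, chr2L:21682102-21682131, minus strand: gtcgctgcagcgcctcgctCTTTCctgtcg
eIF4A start, chr2L:5981749-5981778, plus strand: cttttgcaagatggagcctCTTTTgcttgg
The DRE of eEF1gamma began 41 bases before the start. In eIF1 no searched word was in the start window, and the DRE began 38 bases after the summit. In eIF4EHP no searched word was in the start window, while the summit window held a TATA word on each strand and had a GC content of 21.8%. The eIF1A window, around the more upstream of the gene's 2 starts, held none of the words. The gene does not lack them, because a TCT word was at its canonical start and a DRE in its promoter. A DRE and a TATA word were also within 50 bases of its candidate summit. In eEF2 and eIF4A the TCT word began at the fifth base from the annotated start shown. The ranked summits of eIF1, eIF1A, eIF4A and eIF4EHP lay outside their start windows, and eEF1alpha2 had no pooled candidate.

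The authors' thresholded list held 3816 peaks, which were exactly the pooled candidates of highest signal. The pooled list and each replicate's list held 30000 candidates, so a rank of 1 is the strongest and 30000 the weakest. A site's rank in a replicate is that of a summit within 100 bp of the pooled summit, and a site is called not found where the replicate had none. Thresholded signals had a median of 193 and a range of 135 to 2699. The signal is the authors' own value with no stated unit, and it was used only to order summits within a list. The candidate lists include background regions per the labels, so a rank far below the threshold is not a binding site by itself. The lists give no read numbers, so depth is unknown and every interval covers the counting of genes or summits only.

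Of 54 translation factor genes, 16 had a thresholded summit no more than 500 bp from a start site (29.6%, Wilson 95% interval 19.1% to 42.8%). Over all protein-coding genes tested the share was 17.0%, and over the 13891 other protein-coding genes it was 16.9% (16.3% to 17.6%). When each replicate's own 3816 strongest summits were used, the members' share was 27.8%, 29.6% and 33.3% in replicates 1, 2 and 3, or 30.2% ± 2.83 (SD, n = 3). The share of all protein-coding genes in those lists was 15.5%, 17.0% and 17.0%, and the share of the other genes was 16.5% ± 0.854 (SD, n = 3). The members' share exceeded that of other genes by 12.3, 12.7 and 16.4 percentage points, in 3 of 3 replicates. An exact two-sided sign-flip test over the replicates gave p = 0.25, the smallest value 3 replicates allow.

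Any pooled candidate, thresholded or not, was found at 33 of 54 members (61.1%, 47.8% to 73.0%), against 49.3% of all protein-coding genes. Among genes with a candidate, the median pooled rank was 3963 for translation factors and 6484 for other protein-coding genes. The cytoplasmic ribosomal protein genes, the other large group of the translation machinery, had a thresholded summit at 77 of 93 genes (82.8%) and a median rank of 526. The mitochondrial ribosomal protein genes had 16 of 73 (21.9%) and a median rank of 5266, and the value for translation factors lay nearer to these than to the cytoplasmic ones. These groups were set side by side by count and no test was made across genes.

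**Figure D1:**
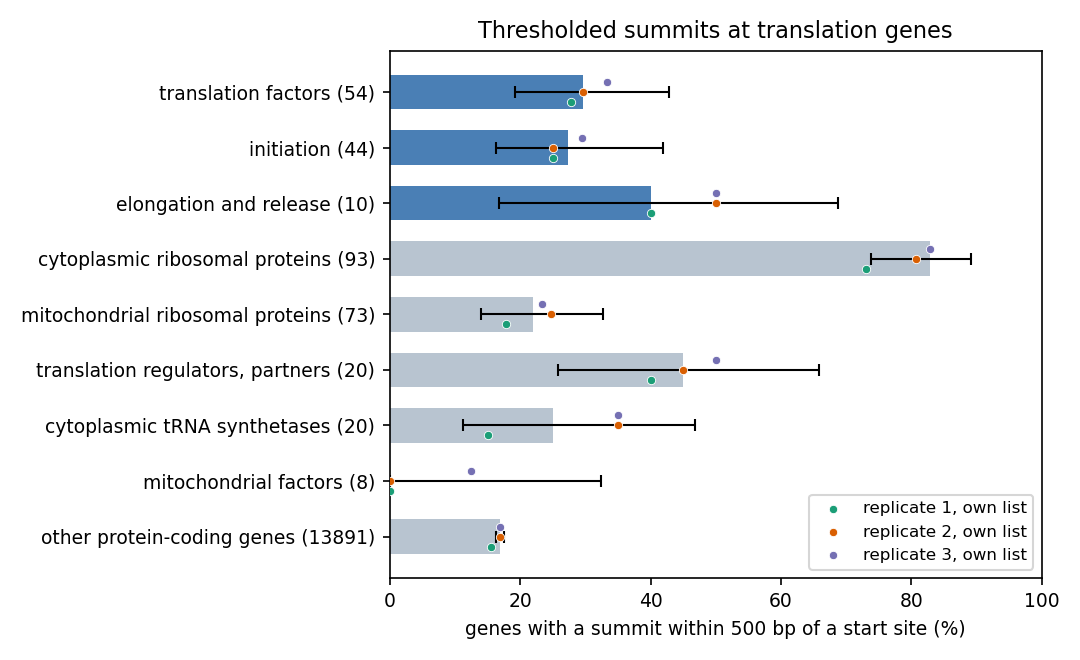
Share of genes with a summit within 500 bp of a start site, in percent on the horizontal axis, for each gene group. Bars are the pooled thresholded list with Wilson 95% intervals and dots are the 3816 strongest summits of each replicate. Cytoplasmic ribosomal protein genes reach 82.8%, elongation and release factors 40%, initiation factors 27.3% and other protein-coding genes 16.9%.

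Elongation and release factors had a thresholded summit at 4 of 10 genes (40%, 16.8% to 68.7%) and initiation factors at 12 of 44 (27.3%, 16.3% to 41.8%), and most of the interval for initiation factors lay within the other. In the replicates' own lists the share of elongation and release factors was 40%, 50% and 50%, or 46.7% ± 5.77 (SD, n = 3). That of initiation factors was 25%, 25% and 29.5%, or 26.5% ± 2.62 (SD, n = 3). The initiation share was lower in 3 of 3 replicates, with differences of -15, -25 and -20.5 percentage points and -12.7 in the pooled list. The exact two-sided sign-flip test over the replicates again gave p = 0.25, the smallest possible. All 4 elongation and release genes with a summit were elongation factors, out of 8, and neither of the 2 release factors passed. With 10 genes, 1 gene more or less moves the share by 10 percentage points.

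Genes with several start sites offer more sequence to a summit, and the groups differed in this. Elongation and release factors had a mean of 2 annotated start sites and initiation factors 1.41, as did other protein-coding genes. All members together had a mean of 1.52. Exactly 1 start site was annotated at 32 of 54 members and at 10214 of 13891 other protein-coding genes. Among members with 1 start site, 5 of 32 (15.6%) had a thresholded summit, against 11.8% of other genes with 1 start. Among members with 2 start sites the count was 9 of 18 (50%), against 25.7%, and with 3 or more it was 2 of 4 (50%), against 44.2%. The part that start-site number plays was not tested, either for initiation against elongation or for members against other genes.

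Among the factors that carry the initiator tRNA and find the start codon, 3 of 9 genes had a thresholded summit and all 9 had a candidate. Over all protein-coding genes the shares were 17.0% with a thresholded summit and 49.3% with a candidate. The counts of every role stand beside these shares, and the roles hold few genes. At eIF1, which guards the accuracy of start codon choice, the summit at 3223007 on 3L ranked 211 in the pooled list with a signal of 575, and 850, 136 and 176 in replicates 1, 2 and 3. It lay 334 bp upstream of the eIF1 start, and the start of the ribosomal protein gene RpL28 on the other strand lay 47 bp from it. A second thresholded summit, 77 bp upstream of the eIF1 start, ranked 2554, and 1818, 2208 and 6276 in the replicates. The eIF1 site was therefore strong in every replicate, but its strongest summit was nearer to RpL28.

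The gene for eIF2beta, a subunit of the complex that delivers the initiator tRNA, had its summit 244 bp upstream of the start at 12526975 on 3L, with pooled rank 2559 and replicate ranks 3458, 2386 and 3928. At eIF2A, which can bring initiator tRNA by another route, the summit at 21824940 on 3L was 25 bp from a start and ranked 2786, and 5320, 18654 and 1248 in the replicates. Only replicate 3 placed the eIF2A site among its strongest 3816. The nearest miss in this role was eIF5B, a GTPase for joining of the ribosomal subunits, at pooled rank 3963 with a signal of 132, and its replicate ranks were 2851, 5635 and 3227. The other members of the role ranked lower, namely eIF2D (4492), eIF2gamma (5375), eIF5 (9492), eIF1A (14678) and eIF2alpha (25867). The 3 subunits of eIF2 itself thus spanned ranks from 2559 to 25867. At eIF1A the candidate was 14 bp from the start of the neighbouring gene Vps39, and eIF2gamma shares its start region with Su(var)3-9.

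None of the 5 genes of eIF2B, the factor that recharges eIF2 with GTP, had a thresholded summit within 500 bp, and 2 had a candidate. The strongest, eIF2Bgamma, ranked 5286 with a signal of 112 and 22030, 4894 and 5734 in replicates 1, 2 and 3, and eIF2Bepsilon ranked 15815. The start of eIF2Bbeta lay 682 bp from the thresholded summit that ranked 2 in the pooled list, and that of eIF2Bdelta 756 bp from one that ranked 2310. These were the members added when the distance was widened to 1000 bp.

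The eIF3 complex, the large scaffold that holds the small subunit and mRNA together, had a thresholded summit at 4 of 16 genes and a candidate at 8. At eIF3h the summit at 5052767 on 2L, 13 bp downstream of a start, had a signal of 320 and ranked 714, and 4984, 1011 and 496 in replicates 1, 2 and 3. A second thresholded summit lay 271 bp downstream with rank 905, and senju has a start 76 bp from the first. At eIF3a, the core subunit on which the complex is built, the summit at 4433943 on 3R had a signal of 270 and ranked 999, and 11291, 586 and 1150. It was 22 bp from the start of CG1074, which is on the other strand, and 48 bp from that of eIF3a. Replicate 1 ranked both sites far below the other two replicates, although at eIF3h another summit in its window ranked 771 there.

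The subunit genes eIF3c and eIF3b passed near the threshold. The eIF3c summit at 17665626 on 2R ranked 3135, was not found in replicate 1, and ranked 6195 and 2044 in replicates 2 and 3. The eIF3b summit at 17536447 on 2R ranked 3683, and 3462, 5381 and 2648 in the replicates. Below the threshold came eIF3f1, with rank 6231 and a signal of 102, which ranked 5007 and 3027 in replicates 1 and 2 and was not found in replicate 3. It was followed by eIF3m (8926), eIF3j (19358) and eIF3g1 (28723), and the other 8 subunit genes had no pooled candidate.

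Of the cap-binding and helicase factors 4 of 13 genes had a thresholded summit and 6 a candidate. The strongest was at eIF4EHP, a cap-binding protein that does not recruit eIF4G and represses translation. Its summit at 24109178 on 3R, 218 bp upstream of the start, had a signal of 835 and ranked 75, and 185, 31 and 269 in replicates 1, 2 and 3. The start of CG18428 was 158 bp from the summit, nearer than that of eIF4EHP. No replicate placed the site lower than 269.

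At eIF4G2, a paralog of the eIF4G scaffold known for its role in the male germline, the summit at 23819156 on 3R had a signal of 214 and ranked 1564. It ranked 1021 and 944 in replicates 1 and 3 and had no counterpart within 100 bp in replicate 2, whose best summit in the same window ranked 1673. The start is shared with CG33111. At eIF4H1, which stimulates the helicase eIF4A, the summit at 16448795 on X lay in an intron 130 bp downstream of a start, had a signal of 211 and ranked 1619, and 1675, 2092 and 1446 in replicates 1, 2 and 3. The eIF4H1 ranks were thus close to each other in all replicates. The helicase gene eIF4A itself ranked 3233 with a signal of 147 at 5982514 on 2L, and 1036, 4523 and 9944 in the replicates. It had 4 candidates in the windows of its 3 start sites, and the best summits there ranked 1036, 2647 and 3114 in replicates 1, 2 and 3. The main cap-binding gene eIF4E1 stayed below the threshold at rank 7803 with a signal of 89.1. This summit ranked 25203 and 8406 in replicates 1 and 2 and was not found in replicate 3. The best summits in the eIF4E1 windows ranked 17957, 8406 and 5148 in replicates 1, 2 and 3. The paralog eIF4E6 ranked 19564.

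The single gene of its role, eIF6, encodes a factor that keeps the large subunit from joining the small one too early. Its summit at 23850419 on 2R, 118 bp upstream of the start, had the highest signal of all members, 894, and ranked 61 in the pooled list and 70, 55 and 85 in replicates 1, 2 and 3. No other protein-coding start lay within 500 bp, although the antisense RNA asRNA:CR45928 starts 89 bp from the summit. All 3 replicates placed the eIF6 site among their strongest 100.

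Among elongation factors the strongest site was at eEF1gamma, a subunit of the exchange complex that reloads eEF1alpha with GTP. Its summit at 29220157 on 3R, 15 bp upstream of a start, had a signal of 865 and ranked 68, and 135, 81 and 30 in replicates 1, 2 and 3. At eEF2, the translocase that moves the ribosome by a codon, the summit at 21682121 on 2L was 5 bp from a start, had a signal of 336 and ranked 646, and 662, 927 and 547. Both sites were among the strongest 1000 in every replicate. At eEF1alpha1, which brings aminoacyl-tRNA to the ribosome, the summit at 11892074 on 2R had a signal of 283 and ranked 911, and 1502, 640 and 1304. It lay 48 bp from a start, and a second thresholded summit, at an offset of -110 bp from another start of the gene, ranked 2327, and 10333, 1761 and 1939. At eEF5, the fly eIF5A, which helps ribosomes past difficult stretches, the summit at 24057886 on 2R had a signal of 180 and ranked 2189, and 4523, 2687 and 2493. All 4 summits were within 100 bp of a start of their gene, and none had another protein-coding start within 500 bp.

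Below the threshold, eEF1beta, the other exchange subunit in this group with a candidate, ranked 4273 with a signal of 126, and 5961, 12084 and 4398 in the replicates. The release factors came close to the threshold and varied between replicates. At eRF3, the release GTPase, the strongest candidate had a signal of 129 and pooled rank 4089, was found only in replicate 2 (rank 859), and lay 90 bp from the start of SC35. The best summits in the eRF3 windows ranked 3209 and 4455 in replicates 1 and 3. At eRF1, which reads the stop codon, the candidate lay 18 bp from a start and ranked 4724, and 6104, 24412 and 2323 in the replicates.

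**Figure D2:**
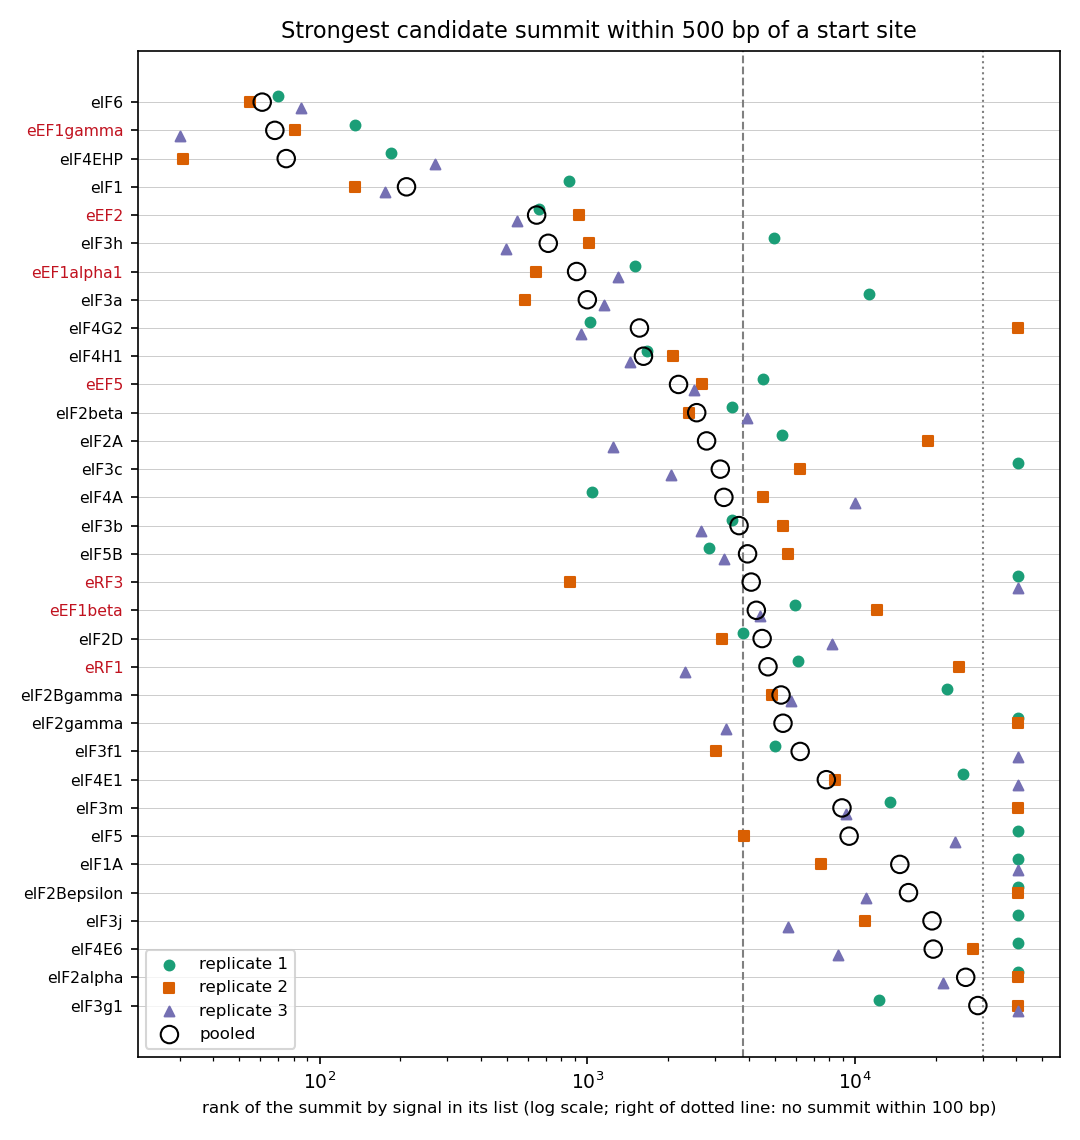
Rank of the strongest candidate summit of every member with a pooled candidate, in the pooled list and in replicates 1, 2 and 3, on a log axis where low ranks are strong sites. The dashed line is the 3816 cut of the thresholded list, the dotted line the 30000 candidates of a list (points to its right had no summit within 100 bp in that replicate), and red labels are elongation and release factors. The members eIF6, eEF1gamma and eIF4EHP sit at the strong end in every list, and the members nearest the dashed line fall on both sides of it in single replicates.

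No pooled candidate was found within 500 bp at 21 members. These were eIF2Balpha, eIF2Bbeta and eIF2Bdelta of eIF2B, and eIF3d1, eIF3d2, eIF3e, eIF3f2, eIF3g2, eIF3i, eIF3k and eIF3l of eIF3. The cap-binding and helicase genes among them were eIF4B, eIF4E3, eIF4E4, eIF4E5, eIF4E7, eIF4G1 and eIF4H2, and the elongation genes were eEF1alpha2, eEF1delta and eEFSec. A replicate list held a summit in the window at 6 of these genes, and at 15 no list did. The genes counted as paralogs were eIF3d2, eIF3f2, eIF3g2, eIF4E3, eIF4E4, eIF4E5, eIF4E6, eIF4E7, eIF4G2, eIF4H2 and eEF1alpha2. The cap-binding gene eIF4EHP, with rank 75, was not counted among them. Of these 11 paralogs 9 had no pooled candidate, the exceptions being eIF4G2 and eIF4E6. Over all protein-coding genes 7077 of 13945 had none. Without the paralogs the share of members with a thresholded summit was 15 of 43 (34.9%). The gene for eEF1alpha2 had no candidate while its paralog eEF1alpha1 had a pair of thresholded summits. How reads that match several gene copies were treated is not stated by the labels.

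The sites of the 16 members with a thresholded summit mostly had a counterpart in the lists of single replicates. The thresholded list was itself made from these 3 replicates with a reproducibility cut. Recurrence is therefore partly built in and is no independent support for the sites. A summit within 100 bp was in the list of replicate 1, 2 and 3 for 15, 15 and 16 of them, and in all 3 lists for 14 (87.5%), against 77.9% of 1771 thresholded summits at other protein-coding genes. Within each replicate's strongest 3816 the counts were 11, 11 and 14 of 16, and 7 (43.8%) were there in all 3 replicates, against 44.9% at other genes. Of the others, 6 were in the strongest part of 2 lists, 3 of 1 list and 0 of none. The 7 were eIF1, eIF4EHP, eIF4H1, eIF6, eEF1gamma, eEF1alpha1 and eEF2. Replicate 3 gave the best rank of the 3 at 9 members, replicate 2 at 6 and replicate 1 at 1. The median pooled rank was 1281.5 at the members and 1700 at the other genes' summits.

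How close summits at members lay to a start depended on which starts were counted. The median distance from the nearest start of the gene was 66 bp at the 16 members and 137 bp at the 2354 other protein-coding genes with a thresholded summit. Within 100 bp were 10 of 16 (62.5%), against 37.5%. The median was 97.5 bp for initiation factors and 24 bp for elongation factors. At the 77 cytoplasmic ribosomal protein genes with a thresholded summit it was 23 bp, shorter than at the members. Offsets ran from 334 bp upstream at eIF1 to 130 bp downstream at eIF4H1, and 11 of 16 (68.8%) were upstream, against 77.1%. When only canonical starts were used the median at members was 118 bp, and the matching value for other genes is not given here. At the members with 1 start site the distances were 334 (eIF1), 244 (eIF2beta), 218 (eIF4EHP), 118 (eIF6) and 48 bp (eIF3a). Whether the shorter median at members rests on genes with several starts was not tested. Another protein-coding start lay within 500 bp of 6 of 16 summits (37.5%), against 48.5% at other genes. The own start was the nearest at 13 of 16 (81.3%), against 77.1%, the exceptions being eIF1, eIF3a and eIF4EHP. Of the 5 members with a thresholded summit and 1 start site, the own start was nearest at 2, which were eIF2beta and eIF6.

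**Figure D3:**
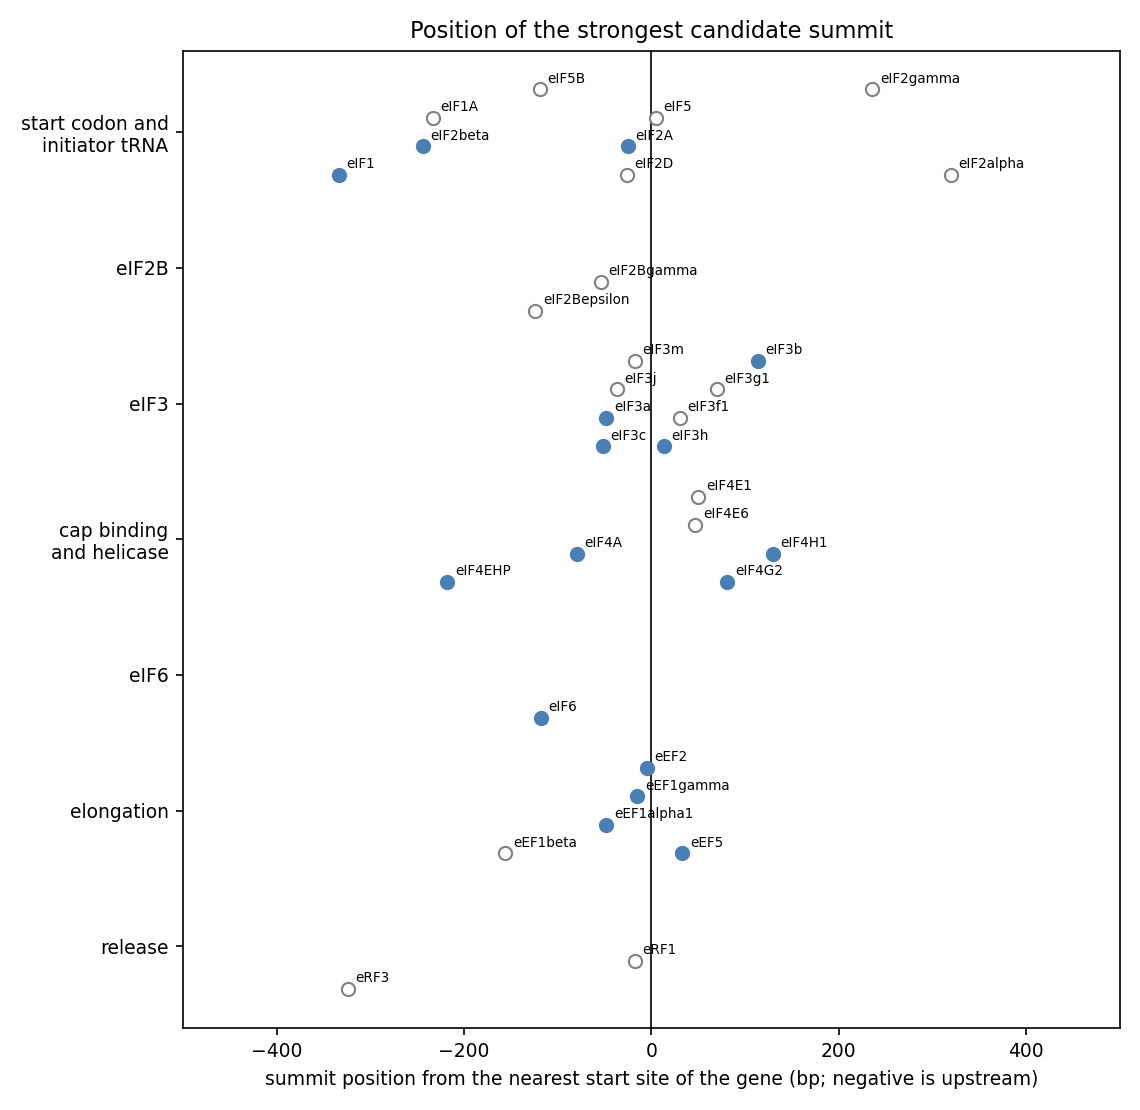
Position of the strongest candidate summit of each member relative to the nearest annotated start of the gene, in bp with upstream negative, by role. Filled points passed the threshold, open points are candidates only, and the height within a role only separates the labels. The elongation factors with a thresholded summit lie between 48 bp upstream and 33 bp downstream.

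The promoters of the members (250 bases before to 50 bases after the canonical start) were searched for 5 words, and the shares are given beside those of other promoters without a test. The DRE (TATCGATA, either strand) was in 15 of 54 (27.8%), against 8.87% of other protein-coding promoters and 8.94% of all. The word GGTCACA of the factor M1BP was in 10 (18.5%), against 9.42% and 9.45%. The words CAGCTG (E-box) and GAGAG (bound by GAGA factor) were in 4 (7.41%) and 7 (13.0%) members, against 17.9% and 30.3% of other promoters, or 17.9% and 30.2% of all. TATAAA was in 26 (48.1%), against 45.3% of other and of all promoters. The 93 cytoplasmic ribosomal protein promoters had shares near those of members. These were 30.1% (DRE), 18.3% (GGTCACA), 9.68% (CAGCTG), 17.2% (GAGAG) and 45.2% (TATAAA). All 5 words were searched on both strands, and a word can overlap another.

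At the start site, the TCT initiator words on the gene strand, beginning within 10 bases of the canonical start, were in 10 members (18.5%), against 6.75% of other promoters and 6.80% of all. Among cytoplasmic ribosomal protein genes, where this initiator is best known, they were in 59 of 93 (63.4%). With any annotated start, a choice made after the data were seen, the members' count was 14 (25.9%), against 9.48%. The usual initiator word TCAGT was in 1 member (1.85%), eEF1alpha2, against 13.6% of other promoters and 13.6% of all. Among cytoplasmic ribosomal protein genes it was in 1 of 93 (1.08%).

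Members with and without a thresholded summit are set side by side here, without a test. The DRE was in 5 of 16 members with a thresholded summit and in 10 of 38 without, and the TCT words were in 3 of 16 and 7 of 38. TATAAA was in 12 of 16 (75%) and 14 of 38 (36.8%), while among other protein-coding genes it was in 42.4% of promoters with a thresholded summit and 45.8% of those without. GGTCACA was in 2 of 16 and 8 of 38. Among other genes the DRE was in 12.2% with and 8.18% without a thresholded summit, and the TCT words in 9.69% and 6.15%. Within 50 bases of the summit the DRE was in 3 of 16 members (18.8%), namely eIF1, eIF3a and eEF1gamma, against 2.71% of 1771 other thresholded summits. Of these summits, those of eIF1 and eIF3a lay nearer to the start of another protein-coding gene, RpL28 and CG1074. The eIF1 promoter itself held no DRE. TATAAA was within 50 bases of 3 of 16 summits (18.8%), against 19.2% at other genes. The median GC content of these windows was 46.5%, with a range from 21.8% to 62.4%, against 37.6% at other genes. A match is only a run of letters, and its use as a site was not tested.

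**Figure D4:**
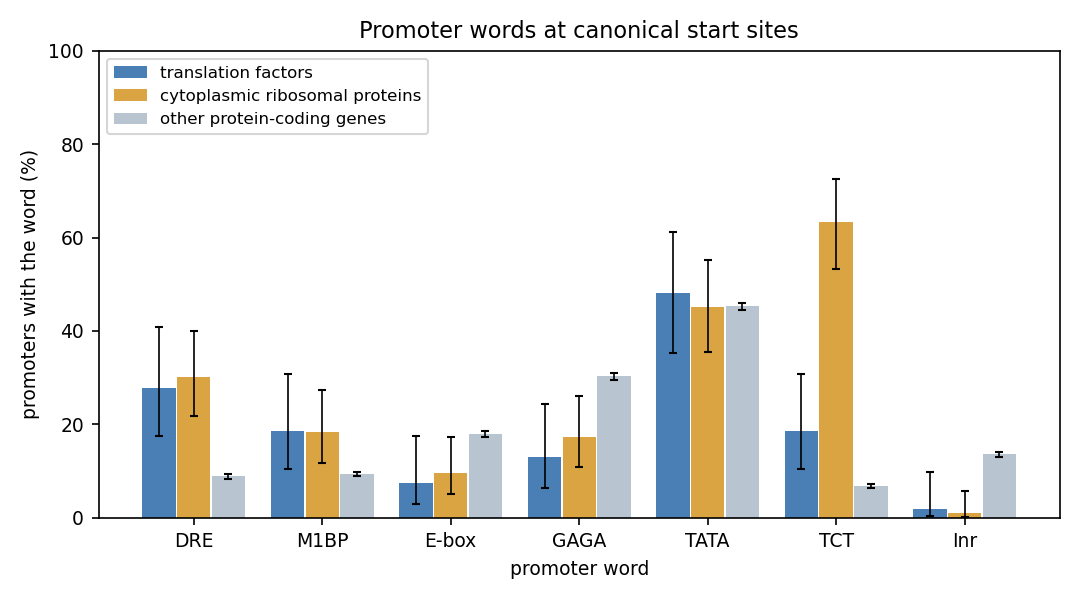
Share of promoters, in percent, that hold each searched word, for translation factor genes, cytoplasmic ribosomal protein genes and other protein-coding genes, with Wilson 95% intervals. Inr is the usual initiator word. The DRE is in 27.8% of translation factor, 30.1% of cytoplasmic ribosomal protein and 8.87% of other promoters. The usual initiator word is in 1.85%, 1.08% and 13.6% of them.

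Other genes of translation were taken from lists fixed with earlier results of these data known. Of 20 regulators and partners, 9 (45%) had a thresholded summit, and the strongest was larp, an RNA-binding protein related to LARP1, with rank 39 and a signal of 996, and 51, 49 and 38 in replicates 1, 2 and 3. Thor, the 4E-BP that blocks eIF4E, ranked 1434 with a signal of 224, and 4147, 1050 and 2836. The other 7 were Lk6 (692), pix (1076), crc (1862), mTor (1879), pelo (2229), Tctp (2274) and HBS1 (3594). The poly(A)-binding protein gene pAbp stayed below the threshold at rank 10555. Of 20 cytoplasmic aminoacyl-tRNA synthetase genes, which charge tRNAs, 5 (25%) had one, namely SerRS (676), IleRS (1080), GluProRS (1942), ThrRS (2183) and AspRS (2757). None of 8 mitochondrial factors had one, and 4 had a candidate, with the best at rank 4415. The share over all protein-coding genes was 17.0%.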

How the data were processed

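ChIP-seq peak lists of 3 replicates were used on dm6. Per the labels, the authors deposited candidate peaks per replicate and for the pool of replicates, with a further list cut at a reproducibility threshold. The authors' deposited values per peak are a signal with no stated unit, a −log10 q-value and other values such as the summit position; for aligner, peak caller and threshold the names are not given in the sources used. The deposited −log10 q-value was not used to rank summits.

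Gene models were Ensembl BDGP6, with the RefSeq Release 6 assembly for sequences. Each gene was given the strongest summit within 500 bp of any annotated start site, and summits within 100 bp counted as the same site. Shares carry Wilson 95% intervals; differences between replicate shares were compared with an exact sign-flip test. Python 3.11.15, numpy 2.4.6, scipy 1.17.1 and matplotlib 3.10.9 were used, and the counting code was tested on planted data. The number of per-sample columns left unmapped was 0.

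Members with a thresholded summit were named by role, then the strongest below the threshold in each role and all members with no candidate. Members, gene lists and words were chosen with earlier results of these data known. The symbol Tor was matched as mTor, and mEFG2 was not matched. Alternatives changed the distance, list, start sites, members and windows, and left out replicates.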

Additional observations from a re-analysis of the deposited data

How the results depend on the processing

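Of 70 alternatives computed, 45 stayed within tolerance, 25 moved and 0 reversed. Shares, ranks and distances cannot change sign, so a reversal of sign was possible only for the initiation minus elongation and release difference. The tolerance was 1 SD of the replicates' values, or the Wilson interval for the candidate share, recurrence and promoter words. Beyond a distance of 500 bp, at 1000 bp, the share with a thresholded summit was 33.3% for all members, 31.8% for initiation factors and 19.7% for other genes, and at 250 bp it was 13.4% for other genes. In the 1908 strongest thresholded peaks the shares were 18.5% (members), 15.9% (initiation), 30% (elongation and release) and 9.41% (other genes). When a summit counted only for the gene with the nearest start they were 25.9%, 22.7% and 13.3% for members, initiation factors and other genes. Canonical starts gave 14.5% for other genes and a median distance of 118 bp. Without paralogs the members' share was 34.9%, and without eIF1, which neighbours a ribosomal protein gene, 28.3%. Over the replicates' own lists the elongation and release share was 46.7% and the initiation minus elongation and release difference -20.2 points. Leaving out each replicate from these means over own lists, which were 30.2% for members, 26.5% for initiation and 16.5% for other genes, gave 28.7% to 31.5% for members, 25% to 27.3% for initiation, 45% to 50% for elongation and release, -22.7 to -17.7 points for the difference and 16.2% to 17.0% for other genes. Against the pooled values these therefore change the list as well. Requiring a summit in the other two replicates alone gave 87.5% to 93.8% for recurrence. Recurrence in all replicates was 62.5% at 50 bp and 43.8% within the strongest summits. Around summits the E-box share was 0% and the TATA share 18.8%; from 100 bases before to 50 after the start, GAGAG was in 5.56% and TATAAA in 22.2%. Initiator words at any start were added after the data were seen. The cause of these changes was not tested. No paired analysis was possible because there is 1 group, with no second group of samples to pair; differences between gene groups were taken within each replicate. Limits are the unknown depth, 10 elongation and release genes and 3 replicates.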
